A study of Mus musculus with 8 samples.

Results

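The translation initiation and elongation factors are the proteins that bring an mRNA, the initiator tRNA and the ribosomal subunits together and then move the ribosome along the message. Their genes were taken by symbol: names that begin with Eif1 to Eif6, Eef1 or Eef2, without a hyphen, and leaving out the Eif2ak kinases and Eif4enif1. The rule gave 60 of the 34976 gene symbols with usable values, from 315 transcript rows that were summed per symbol. Of the 60, 57 had a mean level of at least 1 FPKM (fragments scaled to transcript length and library total) over the libraries and were tested. Eef1a2, Eif4ebp3 and Eif2c5 were below that level. GENCODE annotates Eif2c5 as a long intergenic noncoding RNA on chromosome X, so it is a member by its symbol only. Eef1e1 encodes a scaffold protein of the multi-aminoacyl-tRNA synthetase complex, and Eif4a3 a helicase of the exon junction complex, so these too carry the name of a factor whose step they do not perform.

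The embryos were CF-1 mouse embryos, an outbred stock, injected as early 1-cell embryos and grown to the late 2-cell stage. In the Scr-MO group (n = 4) the injection held a scrambled control morpholino, and in the Med13-MO group (n = 4) a morpholino against MED13, a subunit of the Mediator kinase module. All embryos of both groups were thus injected, and uninjected embryos were not analysed here. Each library came from a pool of 40 embryos collected independently of the others, the labels give neither the sex nor the exact hour of collection, and libraries were numbered in accession order only.

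Initiation in eukaryotes starts when eIF4F (the cap-binding protein eIF4E, the scaffold eIF4G and the helicase eIF4A) binds the capped end of an mRNA. The small ribosomal subunit, with eIF1, eIF1A, eIF3, eIF5 and the eIF2 complex that holds the initiator tRNA, then scans to the start codon. eIF5B joins the large subunit, eEF1A brings each aminoacyl-tRNA, and eEF2 moves the ribosome one codon on. A mouse egg carries a store of maternal mRNAs, and in the 2-cell embryo that store is cleared while the embryo's own genome takes over.

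Med13 RNA itself was measured first. It was 41.1, 38.5, 38.2 and 47.5 FPKM in Scr-MO libraries 1 to 4 and 43.9, 39.4, 41.7 and 43.8 FPKM in Med13-MO libraries 1 to 4. The groups overlapped, at 41.3 ± 4.31 (SD, n = 4) and 42.2 ± 2.14 FPKM (SD, n = 4), with a two-sided exact permutation p of 0.629 over 70 assignments, of which the smallest possible is 0.0286. Morpholinos can block the translation of a message and leave its level as it was, so the RNA level does not check the labels here.

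Library totals read back from the FPKM values were about 31380000 to 48050000 fragments. The 10 most abundant genes took 20.8% of the summed FPKM in Scr-MO 2, 13% to 13.8% in the other Scr-MO libraries and 16.4% to 17.5% in the Med13-MO libraries. The 8 listed egg and 2-cell markers were all present, and their summed level was 601 to 751 FPKM in Scr-MO and 952 to 1110 FPKM in Med13-MO. Cumulus cell markers summed to at most 2.08 FPKM, sperm markers (4 of 6 with values) to at most 0.911, blood markers (2 of 6 with values) to at most 0.396, immune cell markers to at most 4.73 and oviduct markers to at most 6.81 FPKM, and 0 of these markers were at 0 in all libraries. Ovgp1, the oviduct glycoprotein, was called lower in Med13-MO, at 3.49 ± 0.679 against 2.18 ± 0.189 FPKM (SD, n = 4 each; limma adjusted p = 0.044). In bulk RNA of pooled embryos, fewer embryos or cells that carry a transcript cannot be told apart from less of it in each.

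Among the 57 tested genes, 6 passed the test between the groups. Eif4e1b and Eif2s3y were higher in Med13-MO, and Eif1a, Eif1ax, Eif5b and Eef1e1 were lower. The test was limma on log2(FPKM + 1), with Benjamini-Hochberg adjustment over all 11755 genes tested and a threshold of 0.05, and a gene below it is referred to as called. The 6 are 10.5% of the 57, and over all genes tested 17.1% were called. In the lower direction it was 4 of 57 against 7.81% of all genes, and in the higher direction 2 of 57 against 9.29%. The share of called translation factors was therefore not above that of genes at large, and the 6 are described for what each of them did.

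**Figure D1:**
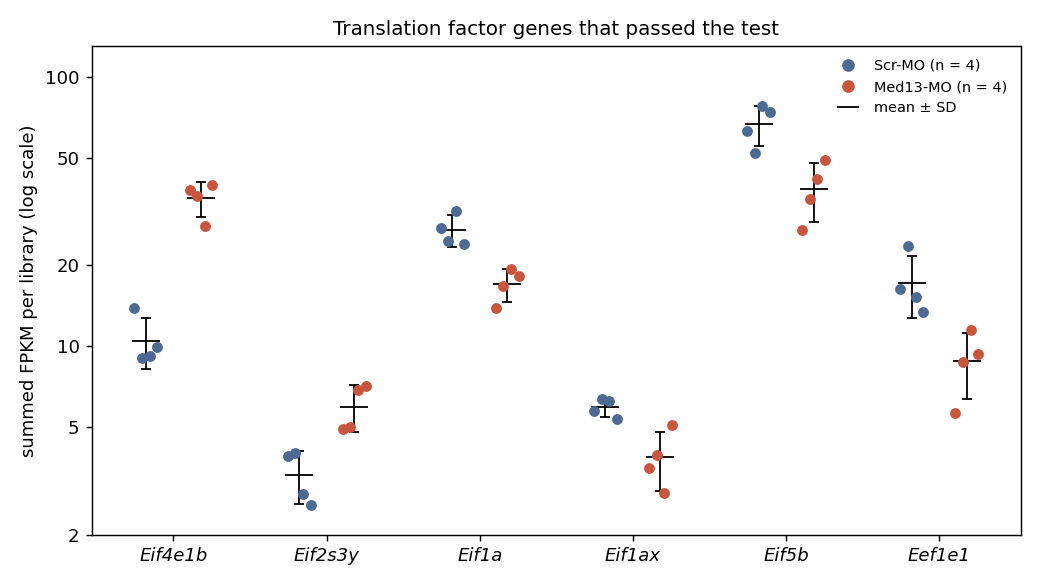
Summed FPKM per library (log scale) of the 6 translation factor genes that passed the test, with Scr-MO libraries in blue, Med13-MO libraries in red and black bars for mean ± SD (n = 4 each). Eif4e1b and Eif2s3y lie higher in all 4 Med13-MO libraries than in any Scr-MO library, and Eif1a, Eif1ax, Eif5b and Eef1e1 lie lower.

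Eif4e1b, the gene of an oocyte relative of the cap-binding protein eIF4E, showed the largest difference among the 57. Its coding sequence is 65.5% identical to that of Eif4e, and the longest run of bases they share is 11. The 90 aligned bases where they are most alike, which span a splice junction, are printed for each. Capitals mark the 26 of 90 bases that differ between them, from GENCODE M21 transcripts (GRCm38). The Eif4e stretch is coding bases 257 to 346 in exons 5 and 6 (chr3:138550298-138550953, plus strand), and that of Eif4e1b is coding bases 341 to 430 in exons 4 and 5 (chr13:54785513-54786679, plus strand).
Eif4e: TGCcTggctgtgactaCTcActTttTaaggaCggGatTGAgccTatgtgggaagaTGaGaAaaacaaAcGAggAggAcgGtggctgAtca
Eif4e1b: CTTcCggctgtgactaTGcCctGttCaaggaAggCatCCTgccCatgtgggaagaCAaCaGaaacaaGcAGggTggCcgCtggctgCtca

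Eif4e1b was at 13.9, 9.03, 9.18 and 9.93 FPKM in Scr-MO libraries 1 to 4. In Med13-MO libraries 1 to 4 it was at 38.1, 36.0, 27.8 and 39.6 FPKM. Every Med13-MO library was above every Scr-MO library, and the lowest of them was well clear of the highest Scr-MO value. The means were 10.5 ± 2.28 and 35.4 ± 5.24 FPKM (SD, n = 4 each), a ratio of 3.37. On the log2(FPKM + 1) scale the difference was 1.67 ± 0.18 (SE; limma adjusted p = 0.000165), and it was called under each of the 18 alternative settings, at 1.35 to 1.80 with an adjusted p of at most 0.00267. Of the 8 egg and 2-cell markers, 7 were called higher as well, both egg genes (Zp3, Gdf9, Bmp15 and Oosp1) and genes that the 2-cell embryo itself transcribes (Zfp352, Tdpoz3 and Zscan4d). Gdf9, an oocyte growth factor, was at 15.2 ± 2.70 FPKM in Scr-MO and 64.7 ± 9.74 in Med13-MO (SD, n = 4 each; log2 difference 2.02). Oosp1, an oocyte-secreted protein gene, was at 38.9 ± 7.67 and 189.1 ± 16.4 FPKM (log2 difference 2.27). Zfp352, a 2-cell gene, was at 38.7 ± 10.9 and 123.0 ± 26.3 FPKM (log2 difference 1.66). Dppa3, a maternal gene, was at 557.5 ± 58.2 and 536.1 ± 119 FPKM and was the 1 marker not called. The part of these transcripts in the Eif4e1b result was not tested.

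Eif4e, which encodes the general cap-binding protein, was far more abundant and went the other way in its means. It was at 162.4, 210.9, 122.8 and 103.1 FPKM in Scr-MO libraries 1 to 4 and at 86.2, 82.5, 111.3 and 103.9 FPKM in Med13-MO libraries 1 to 4. The groups overlapped, with Med13-MO 3 and 4 at or above the lowest Scr-MO library and Scr-MO 2 highest of all. The log2 difference was -0.59 ± 0.22 (SE, 95% interval -1.07 to -0.12; limma adjusted p = 0.0809), and it was called only when Scr-MO 4 was left out. Eif4e1b amounted to 8.54%, 4.28%, 7.47% and 9.63% of Eif4e in Scr-MO libraries 1 to 4. In Med13-MO libraries 1 to 4 it amounted to 44.2%, 43.6%, 25.0% and 38.1%. Within the library, FPKM per FPKM, the lowest Med13-MO share was above the highest Scr-MO share (this ratio was chosen after the values were seen and was not tested). The sums are over 10 rows for Eif4e1b and 6 for Eif4e, so the size of the share may depend on the rows.

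**Figure D2:**
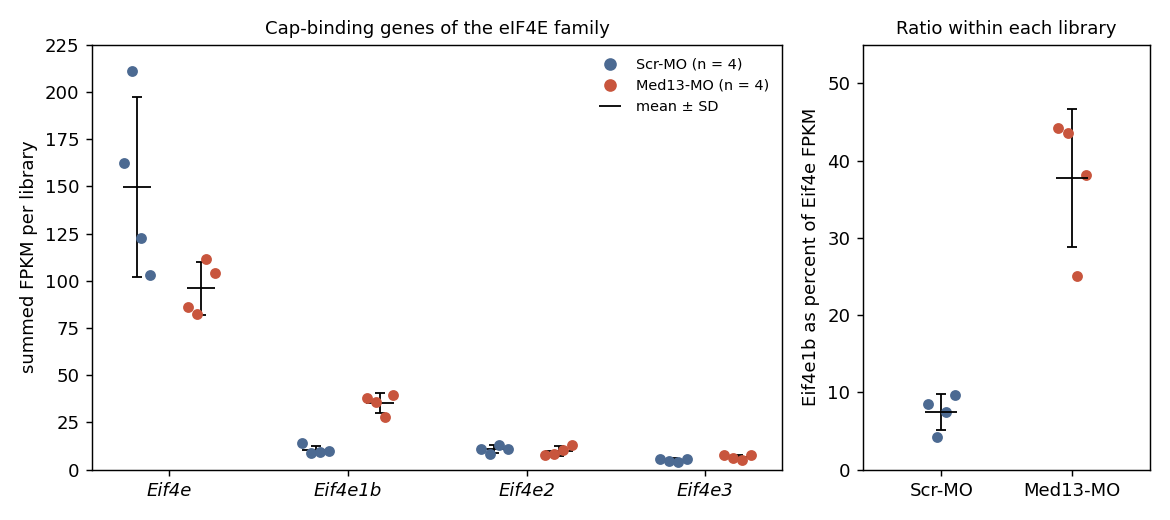
Left, summed FPKM per library of the 4 cap-binding genes of the eIF4E family, and right, Eif4e1b as a percent of Eif4e in each library, with Scr-MO in blue, Med13-MO in red and black bars for mean ± SD (n = 4 each). Eif4e stands highest and overlaps between the groups, while the Eif4e1b share has a mean of 7.48% in Scr-MO and 37.7% in Med13-MO.

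Of the rest of the cap-binding and helicase group, 0 genes were called, which leaves Eif4e1b as 1 of 12 (8.33%, against 17.1% of all genes). At an unadjusted limma p under 0.05 there were 2 more, both lower, Eif4e and Eif4g1 (25% of the 12 with Eif4e1b, against 32.4% of all genes). Eif4e2, a cap-binding relative that takes part in repression, was at 10.9 ± 2.11 FPKM in Scr-MO and 9.76 ± 2.54 in Med13-MO. Eif4e3 was at 5.05 ± 0.888 and 6.72 ± 1.23 FPKM (adjusted p = 0.176). Eif4g2, which encodes a scaffold that lacks the eIF4E-binding part, had the highest summed FPKM of all 57 genes. The sum is over 14 rows, which may count a fragment more than once. Its highest single row had means of 80.4 FPKM in Scr-MO and 71.9 in Med13-MO. As a sum, Eif4g2 was at 295.8, 258.4, 348.3 and 331.0 FPKM in Scr-MO libraries 1 to 4. In Med13-MO libraries 1 to 4 it was at 279.7, 287.6, 280.4 and 283.0 FPKM. All Med13-MO values fell inside the Scr-MO range (log2 difference -0.12 ± 0.15 SE; limma adjusted p = 0.638). Eif4g1, the principal scaffold, was at 58.5 ± 8.43 and 44.2 ± 5.67 FPKM (log2 difference -0.39 ± 0.17 SE; adjusted p = 0.12), and Eif4g3 was at 6.97 ± 1.24 and 6.14 ± 0.717 FPKM.

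The paired helicases Eif4a1 and Eif4a2, 78.2% identical in coding sequence, leaned apart without passing the test. Eif4a1 was at 90.7 ± 16.6 FPKM in Scr-MO and 73.8 ± 13.4 in Med13-MO (log2 difference -0.29, adjusted p = 0.299). Eif4a2 was at 66.3 ± 12.2 and 85.8 ± 11.2 FPKM (log2 difference 0.37, adjusted p = 0.159). Eif4a2 as a percent of Eif4a1 averaged 76.9% ± 28.0 (SD, n = 4) in Scr-MO and 118% ± 11.5 (SD, n = 4) in Med13-MO, and the groups overlapped because Scr-MO 2 was at 113% and Med13-MO 4 at 102%. Eif4b and Eif4h, cofactors of the helicase, were at 27.0 and 14.3 FPKM in Scr-MO and at 29.9 and 9.66 FPKM in Med13-MO. Of the genes for eIF4E-binding repressors, Eif4ebp1 was at 3.95 ± 1.69 and 2.21 ± 0.961 FPKM (log2 difference -0.60 ± 0.26 SE; adjusted p = 0.135) and Eif4ebp2 at 20.2 ± 6.89 and 18.4 ± 2.68 FPKM (adjusted p = 0.867). Neither was called.

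Of the 6 scanning factors, 2 were called lower (7.81% of all genes were), and both encode eIF1A, the factor that keeps the small subunit open to scan. Eif1a was at 27.4, 24.6, 31.9 and 23.9 FPKM in Scr-MO libraries 1 to 4. It was at 13.8, 16.7, 19.4 and 18.2 FPKM in Med13-MO libraries 1 to 4. The groups did not overlap, and the means were 26.9 ± 3.63 and 17.0 ± 2.39 FPKM (SD, n = 4 each; log2 difference -0.63 ± 0.16 SE; limma adjusted p = 0.0205). The call was lost without Scr-MO 3 or Med13-MO 2, at an adjusted p of 0.0646 without the latter. Eif1ax, the X-linked copy, was at 5.75, 6.38, 6.29 and 5.37 FPKM in Scr-MO libraries 1 to 4. It was at 3.53, 3.96, 2.85 and 5.12 FPKM in Med13-MO libraries 1 to 4. Med13-MO 4 came close to the lowest Scr-MO library, and the log2 difference was -0.53 ± 0.17 (SE; limma adjusted p = 0.0441). The call was lost in 7 of the 8 fits that left out a library, so it rests on the full set. Eif1a and Eif1ax are 85.6% identical over 432 coding bases, with a longest shared run of 28 bases. Only a coding fragment wholly inside a shared run matches both exactly, and how such fragments were assigned is not stated. The level of Eif1a was 454% ± 52.3 of that of Eif1ax in Scr-MO and 462% ± 147 in Med13-MO (SD, n = 4 each).

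Eif1 and Eif1b encode near-identical forms of eIF1, which guards the choice of start codon. Eif1b was at 16.7, 12.3, 13.3 and 12.6 FPKM in Scr-MO libraries 1 to 4 and at 9.54, 9.93, 10.8 and 10.7 FPKM in Med13-MO libraries 1 to 4. Its groups did not overlap, yet it missed the threshold (log2 difference -0.38 ± 0.15 SE; limma adjusted p = 0.0985), and 12.7% of its exonic bases lie over D830035M03Rik on the opposite strand. Eif1, more abundant per length, was at 114.5 ± 5.79 FPKM in Scr-MO and 122.5 ± 19.6 FPKM in Med13-MO (log2 difference 0.08, adjusted p = 0.755). Eif5, which triggers GTP hydrolysis on eIF2, was at 156.0, 191.8, 151.9 and 125.5 FPKM in Scr-MO libraries 1 to 4 and at 111.1, 149.0, 167.5 and 198.0 FPKM in Med13-MO libraries 1 to 4. The ranges covered each other, with means of 156.3 ± 27.2 and 156.4 ± 36.3 FPKM and no direction that held across settings. Eif1ad, a nuclear relative of eIF1A, was at 9.52 ± 1.04 and 6.94 ± 1.81 FPKM (log2 difference -0.43, adjusted p = 0.126).

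Eif5b, whose product joins the ribosomal subunits, was lower in every Med13-MO library. It was at 62.9, 52.2, 77.5 and 73.8 FPKM in Scr-MO libraries 1 to 4. It was at 27.0, 35.2, 41.8 and 49.0 FPKM in Med13-MO libraries 1 to 4. The highest Med13-MO library lay just under the lowest Scr-MO library, and the means were 66.6 ± 11.4 and 38.2 ± 9.41 FPKM (SD, n = 4 each), 1.74-fold lower in Med13-MO. The log2 difference was -0.80 ± 0.20 (SE; limma adjusted p = 0.0196), and the call was lost without Scr-MO 3, Scr-MO 4 or Med13-MO 2. Of its exonic bases 16.8% lie over Rev1 on the opposite strand, and the strand setting of the counts was not stated in any source at hand. Eif6, which keeps free large subunits from joining too early, was at 120.8 ± 12.4 and 99.8 ± 24.2 FPKM (log2 difference -0.30, adjusted p = 0.301).

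eIF2 delivers the initiator tRNA, and its gamma subunit has an X-linked and a Y-linked gene, Eif2s3x and Eif2s3y. These are 86.3% identical over 1416 coding bases, with a longest shared run of 34 bases. The stretches below are the 90 aligned bases where they are most alike, so they differ less than the whole coding sequences do. Capitals mark the 6 of 90 bases that differ. Both are coding bases 1300 to 1389 in exons 11 and 12 (GENCODE M21, GRCm38), of Eif2s3x at chrX:94190889-94196327 on the minus strand and of Eif2s3y at chrY:1023419-1028221 on the plus strand.
Eif2s3x: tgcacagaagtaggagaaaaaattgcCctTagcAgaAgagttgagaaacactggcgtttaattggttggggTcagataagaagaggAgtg
Eif2s3y: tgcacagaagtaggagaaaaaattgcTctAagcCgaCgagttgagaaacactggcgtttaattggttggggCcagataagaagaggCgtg

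Eif2s3y was at 3.90, 4.03, 2.84 and 2.57 FPKM in Scr-MO libraries 1 to 4. It was at 4.92, 5.0, 6.87 and 7.11 FPKM in Med13-MO libraries 1 to 4. The groups did not overlap, and the means were 3.33 ± 0.738 and 5.98 ± 1.18 FPKM (SD, n = 4 each; log2 difference 0.69 ± 0.18 SE; limma adjusted p = 0.0209). The call was lost without Scr-MO 3, Scr-MO 4 or Med13-MO 3. Eif2s3x was at 57.1 ± 7.46 and 46.1 ± 5.24 FPKM (log2 difference -0.30, adjusted p = 0.213), and Eif2s3y amounted to 5.81% ± 0.804 of Eif2s3x in Scr-MO and 12.9% ± 1.12 in Med13-MO (SD, n = 4 each), a ratio chosen after the values were seen and not tested. Values of 4 other Y-linked genes, chosen after seeing Eif2s3y, are given beside it. Kdm5d, a Y-linked histone demethylase gene, was at 5.48 ± 0.780 FPKM in Scr-MO and 7.76 ± 0.923 in Med13-MO (SD, n = 4 each; limma adjusted p = 0.0676), without overlap but not called. Uty was at 6.14 ± 0.644 and 6.10 ± 0.335 FPKM (adjusted p = 0.985). Ddx3y, at 0.742 ± 0.307 and 0.838 ± 0.108 FPKM, and Usp9y, at 0.741 ± 0.212 and 0.744 ± 0.109 FPKM, were too low to be tested. The share of male embryos in each pool is not in the labels, and its part in the Eif2s3y difference was not tested.

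The other genes of the eIF2 step were not called. Eif2s1, the alpha subunit that stress kinases phosphorylate, was at 32.4 ± 7.61 and 27.1 ± 3.53 FPKM (log2 difference -0.23, adjusted p = 0.414). Eif2s2, the beta subunit, was at 111.2 ± 11.2 and 87.0 ± 15.4 FPKM (log2 difference -0.36, adjusted p = 0.164). Eif2a and Eif2d, which can deliver tRNA without eIF2, were at 21.5 and 4.41 FPKM in Scr-MO and at 19.4 and 6.30 FPKM in Med13-MO, with adjusted p of 0.6 and 0.12. The 5 genes of eIF2B, which reloads eIF2 with GTP, had log2 differences of -0.56 to 0.06 with a median of -0.21. Calls numbered 0, against 17.1% of all genes, and 1 of the 5 had an unadjusted limma p under 0.05, against 32.4%. That was Eif2b2, at 14.1 ± 3.54 and 9.34 ± 3.0 FPKM (adjusted p = 0.128).

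The 14 genes of eIF3, the large scaffold of the small subunit, gave 0 calls (17.1% of all genes were called), with log2 differences of -0.59 to 0.10 and a median of -0.17. At an unadjusted p under 0.05 there were 3 of 14, all lower, a share of 21.4% against 32.4% of all genes. Eif3a, the largest core subunit, was at 93.5 ± 17.9 FPKM in Scr-MO and 67.3 ± 12.5 in Med13-MO (adjusted p = 0.106). Eif3c, another core subunit, was at 71.1 ± 10.2 and 51.1 ± 12.9 FPKM (adjusted p = 0.112). Eif3g, an RNA-binding subunit, was at 37.5 ± 8.48 and 25.7 ± 11.1 FPKM (adjusted p = 0.153). Of the other 11, Eif3l had a log2 difference of -0.44, Eif3b of -0.17, Eif3h of 0.06 and Eif3e, the highest, of 0.10. Eif3j1 and Eif3j2 share 781 coding bases in one run, where fragments could be given to either, so their separate values are uncertain. Among the eIF3 genes the widest overlap with another gene was in Eif3d, where 43.3% of the exonic bases lie over Gm17638 on the opposite strand.

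**Figure D3:**
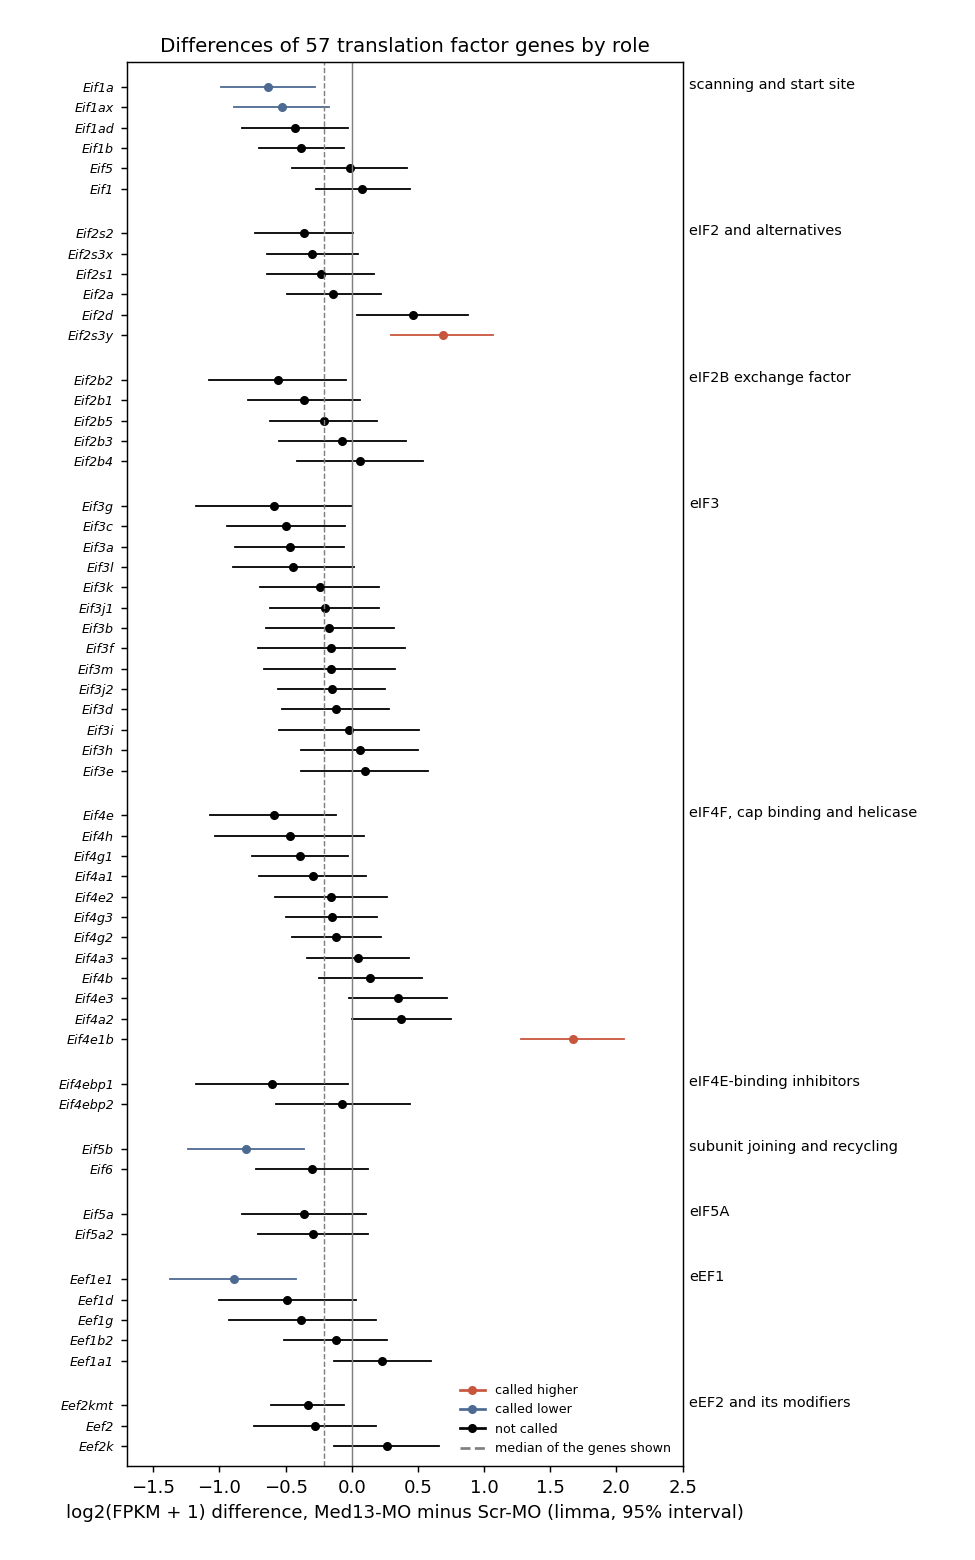
Log2(FPKM + 1) difference, Med13-MO minus Scr-MO, of the 57 tested genes in blocks by role, with 95% intervals from limma (red, called higher; blue, called lower; black, not called). The dashed line is the median of the genes shown, -0.21, and Eif4e1b stands alone at 1.67.

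The elongation factors that carry out the cycle were not called. Eef1a1, which brings aminoacyl-tRNA to the ribosome, was at 151.7, 107.8, 155.8 and 162.8 FPKM in Scr-MO libraries 1 to 4 and at 165.8, 156.9, 171.3 and 177.5 FPKM in Med13-MO libraries 1 to 4. The groups overlapped, with Scr-MO 2 apart at the low end (log2 difference 0.23 ± 0.17 SE; limma adjusted p = 0.361). Its tissue-restricted relative Eef1a2 was at or under 0.0715 FPKM in each library. Eef1b2, Eef1d and Eef1g, of the complex that reloads eEF1A with GTP, were at 24.2, 60.1 and 16.7 FPKM in Scr-MO and at 22.2, 44.5 and 13.1 FPKM in Med13-MO, with adjusted p of 0.687, 0.175 and 0.327. Eef2, the translocation factor, was at 56.9 ± 11.9 and 47.2 ± 12.3 FPKM (adjusted p = 0.39), and Eef2k, the kinase that inhibits it, at 2.27 ± 0.561 and 2.96 ± 0.808 FPKM (adjusted p = 0.333). Eef2kmt, a methyltransferase that modifies eEF2, was at 1.16, 1.28, 1.5 and 1.54 FPKM in Scr-MO libraries 1 to 4 and at 0.842, 0.792, 0.994 and 0.890 FPKM in Med13-MO libraries 1 to 4. Its groups did not overlap, but it was not called (limma adjusted p = 0.0893), and 23.0% of its exonic bases lie over Alg1 on the opposite strand. Eif5a, which helps ribosomes past difficult peptide bonds, was at 89.1 ± 25.3 and 67.6 ± 11.3 FPKM (adjusted p = 0.269).

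Eef1e1, the synthetase-complex gene, had the lowest log2 difference of the 57. It was at 16.4, 23.6, 15.3 and 13.3 FPKM in Scr-MO libraries 1 to 4. It was at 5.67, 8.70, 11.5 and 9.37 FPKM in Med13-MO libraries 1 to 4. The groups did not overlap, and Scr-MO 2 was the highest. The means were 17.2 ± 4.48 and 8.82 ± 2.42 FPKM (SD, n = 4 each), 1.94-fold lower in Med13-MO, with a log2 difference of -0.89 ± 0.22 (SE; limma adjusted p = 0.0171). Every fit that left out a library kept the call, but without Med13-MO 2 only just (limma adjusted p = 0.0499).

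Genes of the translation machinery are often members of the terminal oligopyrimidine class, whose messages share a pyrimidine start and are regulated together in translation. Of the 57 genes, 9 were listed as such (Eef1a1, Eef1b2, Eef1d, Eef1g, Eef2, Eif3e, Eif3f, Eif3h and Eif4b). By limma 0 of them were called, against 17.1% of all genes, and 0 had an unadjusted p under 0.05, against 32.4%. Their log2 differences ran from -0.49 to 0.23 with a median of -0.12, beside -0.06 for all genes.

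The whole set leaned lower without many calls. The fitted log2 difference was below 0 for 44 of the 57 genes (77.2%, against 55.5% of all genes tested), and the median was -0.21 against -0.06. The median stayed below 0 under each of the 18 alternative settings, at -0.33 to -0.13. The median of all genes tested was also below 0 in each, at -0.11 to -0.0059. These settings reuse the same libraries. At an unadjusted p under 0.05 there were 17 of 57 (29.8%), against 32.4% of all genes. The 2 groups did not overlap for 8 of the 57 genes (14%, against 21.6%), 6 of them lower in Med13-MO (11.1% of all genes were) and 2 higher (10.4% of all genes were). These 8 were the called 6 with Eef2kmt and Eif1b.

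The lean differed between libraries. Against the Scr-MO mean of each gene, the median deviation of the 57 genes was -0.50, -0.24, -0.15 and 0.03 on the log2 scale in Med13-MO libraries 1 to 4. In Scr-MO libraries 1 to 4 it was 0.01, -0.25, 0.21 and 0.05. Scr-MO 2 thus lay as low as Med13-MO 2, and Med13-MO 4 lay with the control libraries. Over all genes tested, the same medians were -0.16, -0.08, -0.02 and 0.05 in Med13-MO and -0.01, -0.16, 0.08 and 0.08 in Scr-MO. In Med13-MO 1, 50 of the 57 genes were below their Scr-MO mean, and in Scr-MO 2, 48 were. The 10 most abundant genes took 20.8% of the summed FPKM in Scr-MO 2, the largest share. In Med13-MO 1 they took 16.4%, the smallest share among the Med13-MO libraries. The 14 eIF3 genes had median deviations of -0.69 in Med13-MO 1 and 0.23 in Med13-MO 4. The summed FPKM of the 57 genes was lowest in Med13-MO 1 at 1915 and highest in Scr-MO 3 at 2949, with Med13-MO 4 at 2823. What sets these libraries apart was not tested. With both Scr-MO 2 and Med13-MO 1 left out, 6 of the 57 were called (10.5%, against 15.6% of all genes), Eif4a2 in place of Eif1ax. Without Scr-MO 3 it was 2 of 57 (3.51%, against 9.38% of all genes), and without Med13-MO 2 it was 3 (5.26%, against 8.29%). When limma weighted the libraries by their fit, 26 of the 57 (45.6%) were called, against 36.9% of all genes.

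**Figure D4:**
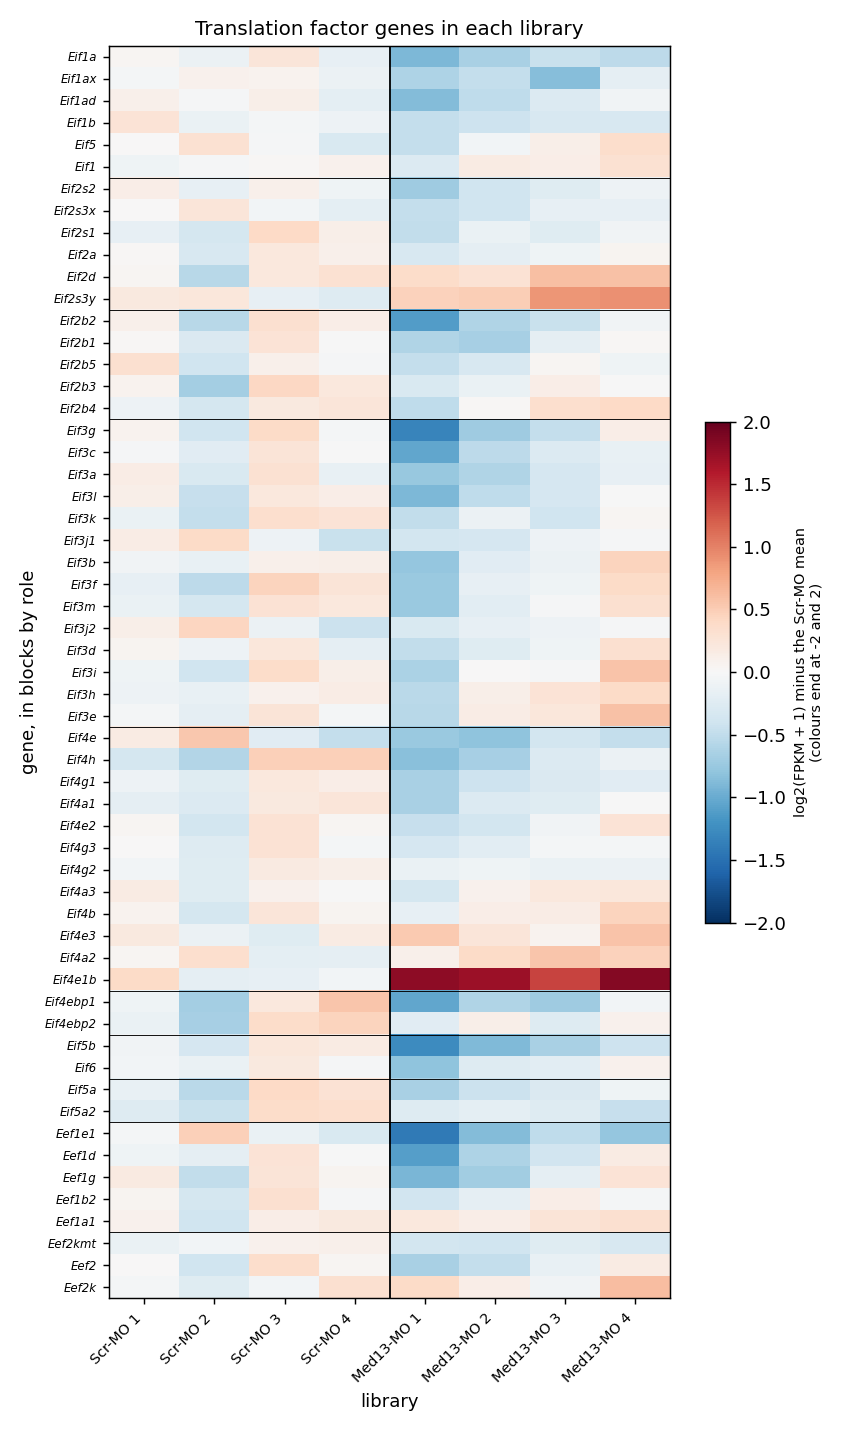
Each of the 57 genes in each of the 8 libraries as log2(FPKM + 1) minus the Scr-MO mean (red above, blue below), in blocks by role. Med13-MO 1 and Scr-MO 2 are blue in most rows (50 and 48 of 57 genes below the Scr-MO mean), and the Eif4e1b row is red in all 4 Med13-MO libraries.

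The transcript rows were tested on their own, over the 21052 rows of the table with a mean of at least 1 FPKM. Of the 315 rows of the set, 216 were tested and 23 were called (10.6%, against 15.7% of all rows), in 9 genes. Of these 12 were lower (7.57% of all rows were) and 11 higher (8.17% of all rows were). Isoforms share exons and the way fragments were given to them is not stated, so rows of 1 gene are not independent. The 23 calls were 39 without Scr-MO 2, 15 without Med13-MO 1, 14 without Med13-MO 3, 12 without Scr-MO 3 and 11 without Med13-MO 2. All 8 tested rows of Eif4e1b were higher, with log2 differences of 0.83 to 1.41, and all 5 of Eif5b were lower, at -0.82 to -0.48. In Eif2s3y, the protein-coding row of 1836 bases was at 0.852 ± 0.205 FPKM in Scr-MO and 2.27 ± 0.485 in Med13-MO (SD, n = 4 each; limma adjusted p = 0.00296), with 44 to 212 fragments per library. Its retained-intron row of 590 bases was at 1.02 ± 0.288 and 1.42 ± 0.367 FPKM and was not called.

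Single rows were also called in 3 genes whose sums were not (15.7% of all rows were called). In Eif2s2, 2 of 5 rows were called lower, and all 5 had log2 differences below 0, at -0.61 to -0.28. The called protein-coding row of 1041 bases was at 14.5 ± 1.99 FPKM in Scr-MO and 9.20 ± 1.32 in Med13-MO (limma adjusted p = 0.0257). In Eif4a2, 2 of 15 rows were called higher, and the 15 had log2 differences of -0.26 to 0.56 with a median of 0.3. The called protein-coding row of 1238 bases was at 2.95 ± 0.202 and 4.86 ± 0.769 FPKM (adjusted p = 0.0218). The other called row, of 1965 bases and typed as a target of nonsense-mediated decay, was at 9.08 ± 1.25 and 13.6 ± 1.84 FPKM (adjusted p = 0.0429). In Eif4g1, 1 of 19 rows was called lower, a protein-coding row of 694 bases at 1.56 ± 0.313 and 0.810 ± 0.198 FPKM (adjusted p = 0.0274). All 19 had log2 differences below 0, at -0.50 to -0.08.

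**Figure D5:**
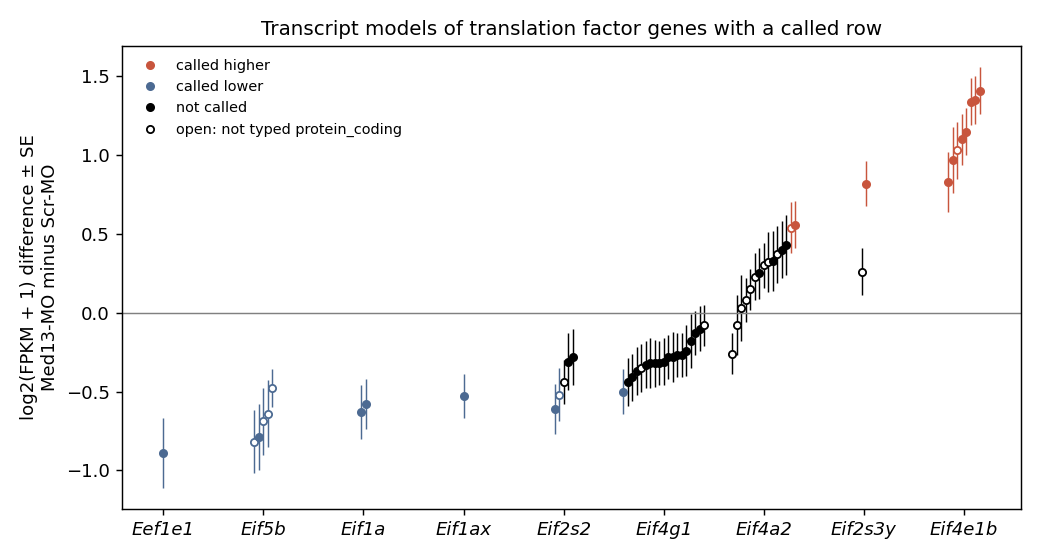
Log2(FPKM + 1) difference ± SE, Med13-MO minus Scr-MO, of each tested transcript row of the 9 genes with a called row (red, called higher; blue, called lower; black, not called; open, not typed protein-coding). All 8 rows of Eif4e1b are above 0 and all 5 of Eif5b below it, while the rows of Eif4a2 spread over both sides, from -0.26 to 0.56.

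Promoters of the whole set were read where RefSeq (GRCm38.p6) gave a window, and those of the called lower genes except Eif1a are printed. A window of 250 bases before to 50 after the start was on hand for 46 of the 60 genes, 57 windows in all. The 3 short motifs searched on both strands do not contain one another. The GC box, GGGCGG, was in 70.2% of the windows of the set against 35.7% of all 32851 windows. Those 32851 were not limited to genes expressed here, as nearly all of the set are, so the shares are not like for like. The motif CCAAT was in 22.8% of the windows of the set against 37.4%. The motif TATAAA was in 8.77% against 13.6%. The 100 bases before the start are printed for Eef1e1 (chr13:38659029-38659128, minus strand), Eif5b (chr1:37997910-37998009, plus strand) and Eif1ax (chrX:159372078-159372177, plus strand), with matches in capitals.
Eef1e1: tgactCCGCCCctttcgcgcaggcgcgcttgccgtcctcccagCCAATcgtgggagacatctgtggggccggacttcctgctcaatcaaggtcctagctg
Eif5b: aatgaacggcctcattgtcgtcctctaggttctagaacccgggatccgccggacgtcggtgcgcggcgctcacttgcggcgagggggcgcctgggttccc
Eif1ax: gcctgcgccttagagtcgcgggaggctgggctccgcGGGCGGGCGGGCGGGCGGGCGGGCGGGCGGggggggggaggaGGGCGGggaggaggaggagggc

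In these bases Eef1e1 held 1 CCAAT match and 1 GC box on the other strand, Eif1ax a run of GC boxes, and Eif5b none of the 3 motifs. The matches are a description of letters and say nothing of factor binding.

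Of 48 other genes of translation control, listed for their roles, 45 were tested, and 4 were called lower and 0 higher (limma). In either direction that is 8.89%, below the 17.1% of all genes. By direction, 7.81% of all genes were called lower and 9.29% higher. The median log2 difference of the 45 genes was -0.07. At an unadjusted p under 0.05 there were 12 (26.7%, against 32.4% of all genes), 11 lower and 1 higher. Larp1, a repressor of terminal oligopyrimidine messages, was at 32.0 ± 5.79 FPKM in Scr-MO and 18.9 ± 3.03 in Med13-MO (SD, n = 4 each; log2 difference -0.73, adjusted p = 0.0181). Tsc1, a brake on mTOR signalling, was at 11.3 ± 1.58 and 7.02 ± 0.745 FPKM (log2 difference -0.62, adjusted p = 0.0176). Gcn1l1, a partner of the eIF2 kinase GCN2, was at 31.6 ± 2.34 and 21.7 ± 2.19 FPKM (log2 difference -0.52, adjusted p = 0.0297). Impact, an inhibitor of the same kinase, was at 3.0 ± 1.01 and 1.30 ± 0.549 FPKM (log2 difference -0.79, adjusted p = 0.0311), though its groups overlapped. The lower calls were 2 without Scr-MO 1, Scr-MO 4 or Med13-MO 3, 1 without Scr-MO 3 and 0 without Med13-MO 2. Over all genes, in either direction, 13.9% were called without Scr-MO 1, 12.8% without Scr-MO 4 and 10.6% without Med13-MO 3. It was 9.38% without Scr-MO 3 and 8.29% without Med13-MO 2.

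The 4 eIF2 kinases were not called, with log2 differences of -0.11 (Eif2ak3) to 0.10 (Eif2ak2 and Eif2ak4). Nor were Mtor, at 4.20 ± 1.43 and 5.45 ± 1.07 FPKM, Pabpc1, the poly(A)-binding protein gene, at 190.1 ± 19.8 and 184.0 ± 35.4 FPKM, or Eif4enif1, the eIF4E transporter gene, at 34.0 ± 6.55 and 33.0 ± 3.65 FPKM. Ddx3x, a helicase gene that aids initiation on structured leaders, was at 171.4 ± 25.3 and 121.3 ± 11.6 FPKM without overlap, with an adjusted p of 0.0578.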

How the data were processed

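RNA of 8 pools of 40 late 2-cell embryos was amplified (Ovation RNA-Seq V2), and TruSeq libraries took 400 ng of the product, per the labels' protocols. The authors deposited FPKM values per transcript row, 97496 rows in all. BWA and mm10 come from the submitters' processing notes; no source at hand states the counting tool, annotation release or strand setting. In 3758 rows, all with a hyphen in the symbol, text stands in the column of Scr-MO 1 (listed as an other unit, since the deposited column mixes text and FPKM) and values are moved by 1 column; these rows were left out, among them 6 whose symbols begin like those of the set. Of the 93738 rows used, 98.7% matched GENCODE M21 (GRCm38), which gave lengths, types and positions.

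Rows were summed per symbol, and genes with a mean of at least 1 FPKM (11755) entered limma 3.58.1 (R 4.3.3) on the log2(FPKM + 1) scale (trend, two-sided, no covariate, Benjamini-Hochberg). Differences on this scale understate those of low genes. Low values came out as multiples of 0.5 fragments within 0.005 for 94.3% to 94.4% of values of up to 20 fragments, which gave the library totals; as fragments may be split or counted for several isoforms, no count test was run. The amplified reads carry no molecular identifiers. The script was tested on simulated data. Named in full were the called genes, those whose groups do not overlap and the 3 with the highest summed FPKM. So were transcript rows of genes with a call and pathway genes from a list. Eif4e, the ratios and the Y-linked genes were added after their values were seen, as were Gdf9, Oosp1, Zfp352, Dppa3 and Ovgp1 out of the marker lists. Members and lists were chosen with earlier results of these data known. Alternatives covered the pseudocount, the filter, scaling, the transcript rows used, library weights, the variance trend and each library left out.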

Additional observations from a re-analysis of the deposited data

Results flagged for a closer look

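In 1 of 114 groups of 4 libraries, 57 genes in 2 groups each, a library stood far from the others. Eif3l, a subunit gene of eIF3, was at 10.6 FPKM in Scr-MO 2 and at 16.2 to 17.3 FPKM in the other Scr-MO libraries. The gap was 0.844 of the group's range, above Dixon's 95% critical value for 4 values. Chance alone flags about 1 in 20 groups.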

How the results depend on the processing

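Eif4e1b was called under each of 18 alternatives and Eef1e1 under all but the unfiltered fit (adjusted p = 0.0705). Eif1ax lost its call in 10 of the 17 that tested it. The number of genes called among all tested, 2010, was 1012 with no filter on low values, 1137 at a mean of at least 5 FPKM, 4336 with library weights, and 975 to 2406 with 1 library left out. Translation factors called lower, 4, became 0 with no filter, 23 with weights and 1 to 6 with 1 library left out; those called higher, 2, became 1 with no filter, 1 at 5 FPKM (which leaves Eif2s3y untested), 3 with median-ratio scaling, the main transcript, weights or without Scr-MO 2 and Med13-MO 1 together, and 1 to 2 with 1 library left out. With no filter, 34976 symbols were tested. Pathway genes called lower, 4, became 1 with no filter, 12 with weights and 0 to 6 with 1 library left out; those called higher, 0, became 1 with median-ratio scaling or without Scr-MO 2 and Med13-MO 1 together, 2 with weights and stayed at 0 with 1 library left out. Called transcript rows, 23, became 10 with no filter, 11 at 5 FPKM, 99 with weights and 11 to 39 with 1 library left out. The share of all rows called under these alternatives is not given here, and that of all genes moved as stated above. The cause of these shifts was not tested. The Med13 difference, 0.034, was -0.0011 to 0.101 with 1 library left out. That of Eif5, -0.01, was 0.03 with median-ratio scaling, 0.04 with quantile normalization, 0.20 with the main transcript, 0.08 with weights, 0.24 without both of those libraries, and -0.14 to 0.14 with 1 left out. The alternatives that drop 2 libraries together or keep only protein-coding rows were chosen after seeing the data. No paired analysis was run, because the groups share no replicate numbers in the labels. The numbers in the sample titles alternate between Scr-MO and Med13-MO, and no label says whether neighbours are pairs. Depth limits the low genes: the main row of Eif2s3y held 44 to 212 fragments.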
